A study of Mus musculus with 12 samples.

Results

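Genes of the later cAMP and stress response were followed mouse by mouse in the adrenal cortex. They were *Crem*, *Sik1*, *Gem*, *Atf3*, *Maff*, *Fosl1*, *Fosl2*, *Myc*, *Gadd45a*, and *Gadd45b*, 10 of the 49585 genes in the deposited counts, chosen by name. All 12 samples were adrenal cortex of male C57BL/6J mice that were 6 weeks old at the start of the diets, with 4 mice in each group and 1 library per mouse. The LFD mice received a low-fat diet for 20 weeks (the labels call it Normal Diet and number the mice 2, 5, 6, and 7), and the HFD mice received a high-fat diet for 20 weeks. The icosapent ethyl–treated mice received the HFD for 20 weeks, supplemented in the last 10 weeks with icosapent ethyl, a purified ethyl ester of the omega-3 fatty acid EPA. The labels give the genotype *Fads2*-/- for all 12 mice, whereas the methods of the study describe wild-type mice, and *Fads2* was measured at between 452 and 2181 CPM in every mouse. CPM are read counts scaled to a common library size, here adjusted by the trimmed mean of M values (TMM) method.

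In the adrenal cortex, ACTH binds the melanocortin 2 receptor and raises cAMP, which activates protein kinase A (PKA). PKA phosphorylates CREB and related factors, and these drive transcription from cAMP response elements (CREs). A first wave of early response genes such as *Fos* and *Junb* is followed by a later wave, which includes repressors and brakes of the same pathway. *Crem* encodes CREB-like factors, including the repressor ICER, which is made from an internal promoter. *Sik1* encodes a kinase that keeps the CREB coactivators of the CRTC family out of the nucleus, and *Gem* encodes a small GTPase that inhibits voltage-gated calcium channels. *Atf3*, *Maff*, *Fosl1*, and *Fosl2* encode bZIP transcription factors, *Myc* encodes a growth-promoting factor that binds E-boxes with MAX, and *Gadd45a* and *Gadd45b* encode small stress sensors that bind MAPK kinases and cell cycle proteins.

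The RefSeq promoter table (GRCm38.p6) held 7 windows for 5 of the 10 genes, *Atf3*, *Fosl2*, *Gadd45a*, *Gadd45b*, and *Maff*. In the 250 bases before each start, both strands were searched for the full CRE (TGACGTCA), its core (TGACG), the AP-1 motif (TGANTCA), and an E-box (CACGTG). The full CRE was found in 1 window, one of the 3 of *Maff*, starting 29 bases before the start site. It is shown because *Maff* is among the genes whose levels differed most between mice. The window lies on chromosome 15 of GRCm38.p6, plus strand, at chr15:79347270-79347519, inside the *Maff* gene and with 0 of its 250 bases in an exon of GENCODE M21. The CRE is in capitals.
*Maff*: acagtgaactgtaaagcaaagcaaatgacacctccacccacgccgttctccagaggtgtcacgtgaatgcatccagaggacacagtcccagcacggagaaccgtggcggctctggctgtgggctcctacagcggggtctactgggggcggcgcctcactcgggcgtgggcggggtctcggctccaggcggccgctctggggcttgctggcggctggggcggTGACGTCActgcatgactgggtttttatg
The full CRE was present in 508 of all 32851 promoter windows of this length (1.55%). The core, which is contained in the full CRE, was found in that window, in another window of *Maff*, and in that of *Atf3*, against 17.8% of all windows. The E-box was found in the *Maff* window shown and in the *Gadd45b* window, against 6.02% of all windows, and the AP-1 motif in none of the 7, against 6.75%. These matches describe the letters of the windows and do not show binding.

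The total of gene counts per mouse was 34785979 to 67295963, and the group medians lay between 43573101.5 and 47897794.5. All 10 genes passed the filter on low counts in every comparison. Their lowest count in any mouse was 4, for *Fosl1*, and the other 9 genes had at least 142 counts in every mouse. The adrenocortical markers *Star*, *Cyp11b1*, and *Nr5a1* were at or above 319 CPM in every mouse, and the medullary markers *Chga*, *Th*, and *Pnmt* were also detected in every mouse, with *Chga* at 885 to 7274 CPM. The mice of a group carry numbers in the labels, and whether they shared a cage or a day is not given. Each p-value thus measures only the spread between the mice that entered its test.

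*Crem* (ENSMUSG00000063889, chromosome 18 of GRCm38 from 3266048 to 3337748, minus strand) was measured at 51.9, 546, 766, and 1301 CPM in LFD replicates 2, 5, 6, and 7. In HFD replicates 1 to 4 it was at 114, 121, 776, and 794 CPM, and in icosapent ethyl replicates 1 to 4 at 77.0, 40.8, 688, and 707 CPM. Each group thus held mice at or below 121 CPM and mice at or above 546 CPM, with none between. The low mice were LFD replicate 2, HFD replicates 1 and 2, and icosapent ethyl replicates 1 and 2. They were all the mice numbered 1 or 2 in the labels, and every mouse with a higher number was high. The LFD group held 1 such low mouse and each other group 2. Whether the numbers follow an order of handling or collection is not given, and their part in these levels was not tested. Counts per gene do not separate ICER from the longer *Crem* transcripts.

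*Maff* (ENSMUSG00000042622, chromosome 15 from 79346621 to 79359076, plus strand), a small MAF factor that partners with other bZIP proteins, divided the mice in the same way. It was at 4.19, 80.7, 107, and 178 CPM in the LFD mice, in the order of their numbers. The HFD mice were at 7.09, 14.3, 154, and 108 CPM, and the icosapent ethyl–treated mice at 11.2, 3.74, 102, and 88.6 CPM. The same 5 mice as for *Crem* were at or below 14.3 CPM, and the other 7 were at or above 80.7 CPM.

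*Fosl1* (ENSMUSG00000024912, chromosome 19 from 5447547 to 5455946, plus strand), which encodes the AP-1 subunit FRA-1, had the lowest level of the 10 genes. It was at 0.132, 7.35, 9.48, and 25.2 CPM in the LFD mice. The HFD mice were at 0.362, 1.63, 50.7, and 10.6 CPM, and the icosapent ethyl–treated mice at 0.876, 0.105, 11.8, and 8.85 CPM. The 5 mice that were low in *Crem* were again the lowest, at or below 1.63 CPM, and the lowest value rested on 4 counts.

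*Atf3* (ENSMUSG00000026628, chromosome 1 from 191170296 to 191218039, minus strand), a repressor that is induced by many stresses, ranged from 4.38 to 105 CPM. The LFD mice were at 4.38, 31.8, 32.5, and 105 CPM. The HFD mice were at 9.003, 21.7, 64.9, and 44.99 CPM, and the icosapent ethyl–treated mice at 14.2, 5.22, 71.8, and 19.1 CPM. LFD replicate 2 and icosapent ethyl replicate 2 were the lowest, and the mice formed no separate clusters.

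**Figure D1:**
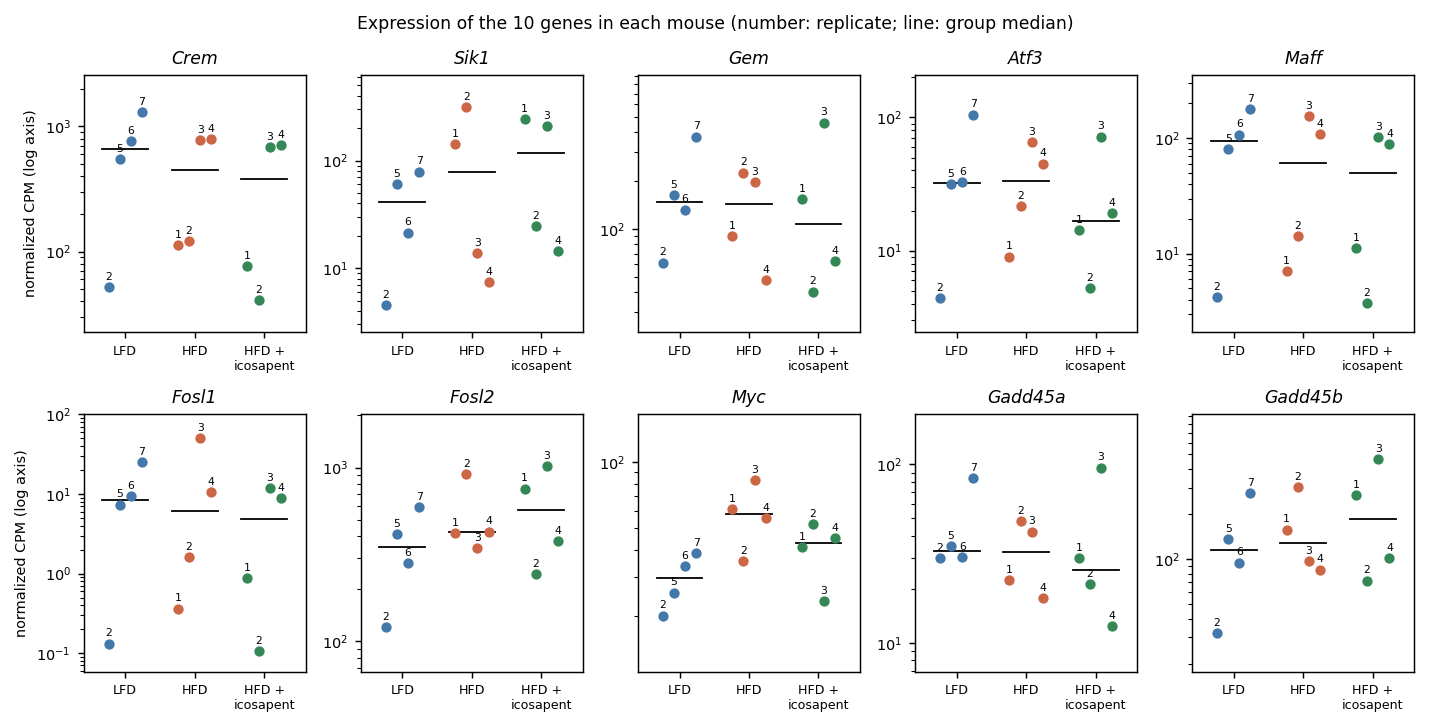
Normalized CPM (log axis) of each of the 10 genes in each of the 12 mice, by diet group. Each point is a mouse with its replicate number, and each line is a group median. For *Crem*, *Maff*, and *Fosl1* the same 5 mice lie below the other 7, and all 3 groups hold mice of both kinds.

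*Sik1* (ENSMUSG00000024042, chromosome 17 from 31844250 to 31855804, minus strand) followed another order. It was at 4.55, 60.6, 21.4, and 79.2 CPM in the LFD mice, at 143, 316, 13.8, and 7.41 CPM in the HFD mice, and at 242, 24.6, 208, and 14.4 CPM in the icosapent ethyl–treated mice. HFD replicates 1 and 2 and icosapent ethyl replicate 1, which were low in *Crem*, were among the 4 highest mice for *Sik1*. HFD replicates 3 and 4, which were high in *Crem*, were at 13.8 and 7.41 CPM.

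*Fosl2* (ENSMUSG00000029135, chromosome 5 from 32135801 to 32157842, plus strand), which encodes the AP-1 subunit FRA-2, was at 119, 415, 281, and 593 CPM in the LFD mice. It was at 416, 917, 341, and 427 CPM in the HFD mice and at 754, 242, 1020.3, and 377 CPM in the icosapent ethyl–treated mice. LFD replicate 2 was the lowest mouse, and the next was icosapent ethyl replicate 2.

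*Gadd45b* (ENSMUSG00000015312, chromosome 10 from 80930073 to 80932204, plus strand) was at 31.9, 136, 94.6, and 277 CPM in the LFD mice. It was at 157, 301, 97.2, and 85.0 CPM in the HFD mice and at 268, 71.9, 467, and 101 CPM in the icosapent ethyl–treated mice. Its relative *Gadd45a* (ENSMUSG00000036390, chromosome 6 from 67035096 to 67037457, minus strand) was at 30.0, 34.9, 30.4, and 83.5 CPM, then 22.4, 48.0, 42.1, and 17.8 CPM, and then 30.0, 21.4, 96.0, and 12.5 CPM in the same order of groups and mice. Both were highest in icosapent ethyl replicate 3, but LFD replicate 2, the lowest mouse for *Gadd45b*, was within 5 CPM of 2 other LFD mice for *Gadd45a*.

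*Gem* (ENSMUSG00000028214, chromosome 4 from 11704457 to 11714752, plus strand) was at 61.4, 161, 132, and 376 CPM in the LFD mice. It was at 90.1, 224, 196, and 47.5 CPM in the HFD mice and at 153, 40.5, 460.3, and 62.6 CPM in the icosapent ethyl–treated mice. LFD replicate 7 and icosapent ethyl replicate 3 were the 2 highest mice for both *Gem* and *Gadd45a*.

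*Myc* (ENSMUSG00000022346, chromosome 15 from 61985391 to 61990374, plus strand) varied least. It was at 20.0, 25.5, 33.7, and 38.6 CPM in the LFD mice, at 61.0, 35.4, 83.2, and 55.6 CPM in the HFD mice, and at 40.9, 52.3, 23.2, and 45.1 CPM in the icosapent ethyl–treated mice. HFD replicate 2 lay below LFD replicate 7, and the other 3 HFD mice lay above all LFD mice. The icosapent ethyl–treated mice overlapped both other groups.

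Per kilobase of exon, the mean level over the 12 mice was highest for *Gadd45b* (109.5 CPM per kilobase), *Crem* (84.6), and *Gem* (79.4). It was 50.8 for *Fosl2*, 27.6 for *Maff*, 22.2 for *Gadd45a*, 18.4 for *Sik1*, 16.4 for *Atf3*, 15.8 for *Myc*, and 5.21 for *Fosl1*. Most neighbours in this order were not separated mouse by mouse. *Gadd45b* was above *Crem* in 6 of 12 mice, *Crem* above *Gem* in 6, and *Sik1* above *Atf3* in 5. Only *Myc* and *Fosl1* kept their order in all 12 mice.

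The spread between mice of one group was large for 9 of the 10 genes compared with other genes. The SD of log2 CPM within groups, pooled over the 3 groups, had a median of 1.42 over the 10 genes and of 0.275 over the 16262 genes that passed the filter in all 12 mice. *Fosl1* had the highest SD of all these genes (3.06), *Maff* the third highest (2.31), and *Sik1* the eighth (2.21). Mice with 4, 7, 17, and 33 counts entered the SD of *Fosl1*, and the ranks make no allowance for low counts. *Crem* ranked 22 (1.94) and *Atf3* 57 (1.59). *Gem*, *Gadd45b*, *Gadd45a*, and *Fosl2* ranked 131 to 603 with SDs of 1.24 to 0.870, whereas *Myc* ranked 3756 with 0.482. The groups accounted for a median of 6.28% of the variance of the 10 genes in log2 CPM, against 22.6% for all genes, and for 47.8% of that of *Myc*. Because the genes were chosen with earlier results of these data known, these ranks are descriptions. In these bulk samples, fewer cells of a type and less RNA per cell cannot be told apart.

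**Figure D2:**
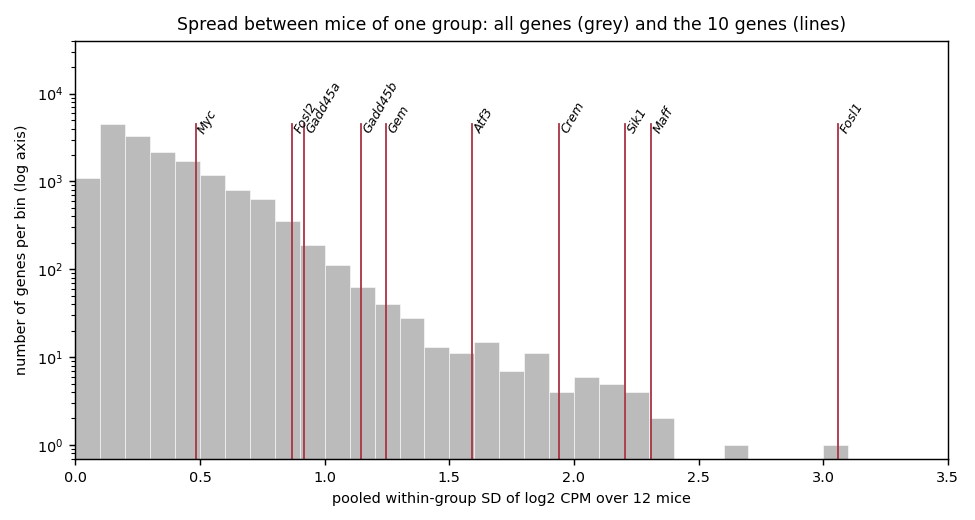
Number of genes (log axis) per bin of the pooled within-group SD of log2 CPM for 16262 genes (grey bars), with the 10 genes as lines. *Myc*, at 0.482, lies among the bulk of genes, and the other 9 lie between 0.870 and 3.06, where genes are few.

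The 10 genes did not vary as 1 block. LFD replicate 2 was at or below the median of the 12 mice in all 10 genes and was the lowest mouse in 5 of them. Icosapent ethyl replicate 2 was above the median in 1 gene and the lowest in 4. LFD replicate 7 and icosapent ethyl replicate 3 were each above the median in 9 genes and the highest in 3 and 4 of them, respectively. HFD replicates 1 and 2 and icosapent ethyl replicate 1 were low in *Crem*, *Maff*, and *Fosl1* but above the median in *Sik1* and *Gadd45b*. HFD replicates 3 and 4, LFD replicate 6, and icosapent ethyl replicate 4 had the opposite pattern. HFD replicates 1 and 2 and icosapent ethyl replicates 1 and 2 were also the 4 mice in which *Fos* was at 316 to 426 CPM, while it was at or below 28.1 CPM in the other 8 mice, LFD replicate 2 included. Whether the early and the later genes were linked was not tested.

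Other measures also differed between the mice that were low and those that were high in *Crem*, within each group. The summed level of the 11 adrenocortical markers was 49990 CPM in LFD replicate 2 and 57717 to 80074 CPM in the other LFD mice. It was 62636 and 79142 CPM in HFD replicates 1 and 2 and 108225 and 111694 CPM in HFD replicates 3 and 4. In icosapent ethyl replicates 1 and 2 it was 78744 and 65969 CPM, against 84812 and 103485 CPM in replicates 3 and 4. The 8 fibroblast and capsule markers went the other way, with sums of 726 CPM against 410.2 to 576 CPM in the LFD mice, 427 and 407 against 337 and 302 CPM in the HFD mice, and 432 and 428 against 342 and 341 CPM in the icosapent ethyl–treated mice, and the 7 adipocyte markers likewise, with sums of 393 CPM against 244 to 306 CPM, 399 and 440.3 against 388 and 363 CPM, and 418 and 359 against 314 and 313 CPM. The TMM factors were 1.14 in LFD replicate 2, 1.07 and 1.002 in HFD replicates 1 and 2, and 1.03 and 1.09 in icosapent ethyl replicates 1 and 2, and lay between 0.883 and 1.05 in the other 7 mice. The 3 marker lists were picked from the 10 after their values were seen, and the other 7 did not divide the mice in this way in all 3 groups. The part of these differences in the levels of *Crem*, *Maff*, and *Fosl1* was not tested.

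**Figure D3:**
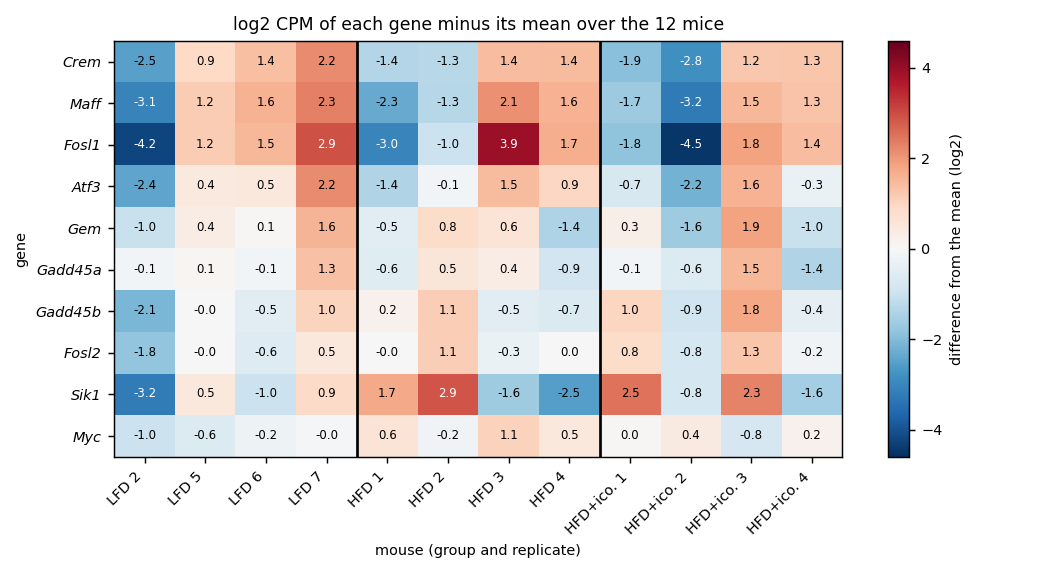
Difference of the log2 CPM of each gene (rows) in each mouse (columns) from the mean of that gene over the 12 mice, with the value in each cell and vertical lines between the groups. The rows of *Crem*, *Maff*, and *Fosl1* share 1 pattern with their lowest values in LFD replicate 2 and icosapent ethyl replicate 2, *Sik1* is high where they are low in HFD replicates 1 and 2 and icosapent ethyl replicate 1, and *Myc* has the palest row.

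Correlations between the genes were computed on log2 CPM centred within groups, with exact two-sided permutation within groups and adjustment over all 45 pairs. The permutations treat the mice of a group as exchangeable, although the low and high mice of *Crem* were divided by label number. For the 7 genes whose mice formed no separate clusters there were 21 pairs, of which 16 had a positive r and 7 an adjusted p below 0.05. The share of all pairs of genes that would pass was not computed. These counts therefore do not show that the 7 genes vary together more than other genes do. *Fosl2* and *Gadd45b* were the closest pair, with Pearson's r = 0.97 and Spearman's rho = 0.95 (exact permutation, p = 0.000289 and 0.000796, adjusted p = 0.0022 and 0.0060, n = 12 mice). Without the 2 mice farthest from the median of *Fosl2*, r was 0.94. *Gem* and *Gadd45a* correlated with r = 0.91 and rho = 0.95 (exact permutation, p = 0.00152 and 0.000506, adjusted p = 0.0076 and 0.0057), and r was 0.93 without the 2 farthest mice. *Sik1* and *Gadd45b* correlated with r = 0.89 and rho = 0.84 (exact permutation, p = 0.000579 and 0.00123, adjusted p = 0.0033 and 0.0069), and r was 0.83 without the 2 farthest mice. *Gem* and *Gadd45b* had r = 0.89 and rho = 0.89 (exact permutation, p = 0.00217 and 0.00224, adjusted p = 0.0098 and 0.0111), with r = 0.84 without the 2 farthest mice. *Fosl2* had r = 0.83 and rho = 0.73 to *Sik1* (exact permutation, p = 0.00253 and 0.0119, adjusted p = 0.0104 and 0.0413) and r = 0.83 and rho = 0.79 to *Gem* (exact permutation, p = 0.00485 and 0.0116, adjusted p = 0.0182 and 0.0413), and these r were 0.76 and 0.72 without the 2 farthest mice. *Gadd45a* and *Gadd45b* had r = 0.76 and rho = 0.86 (exact permutation, p = 0.0128 and 0.00369, adjusted p = 0.0443 and 0.0151), but r dropped to 0.51 without the 2 farthest mice. Without those mice *Gem* and *Gadd45a* (adjusted p = 0.0260) and *Fosl2* and *Gadd45b* (adjusted p = 0.0417) still passed by exact permutation. *Sik1* and *Gadd45b* (0.0818), *Gem* and *Gadd45b* (0.0984), *Fosl2* and *Sik1* (0.104), *Fosl2* and *Gem* (0.197), and *Gadd45a* and *Gadd45b* (0.323) did not. Fewer mice also allow fewer permutations, so the loss of these 5 calls does not by itself show that they rested on the mice left out. Among the 21 pairs, *Atf3* passed in none, with r = 0.71 to *Gem* (exact permutation, p = 0.0222, adjusted p = 0.0675) as its highest. The 6 pairs with *Myc* had r between -0.33 and 0.10.

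For *Crem*, *Maff*, and *Fosl1*, no r over all mice is given, because the mice fell into separate clusters. Their pairs with each other and with *Atf3*, 6 in all, were examined within the 7 high mice after the data were seen, again on values centred within groups and permuted within groups. These 7 mice allow only 24 such permutations, so that p could not go below 0.0417, and none of the 6 pairs passed after adjustment over the 6. *Fosl1* and *Maff* had r = 0.89 and rho = 0.93 (exact permutation, p = 0.0417 for both, the smallest possible, adjusted p = 0.0833), and r was 0.93 without the 2 farthest mice. *Crem* and *Maff* had r = 0.88 and rho = 0.61 (exact permutation, p = 0.167 and 0.333, adjusted p = 0.2 and 0.5), with r = -0.87 without the 2 farthest mice. *Crem* and *Fosl1* had r = 0.59 and rho = 0.36 (exact permutation, p = 0.167 and 0.417, adjusted p = 0.2 and 0.5), with r = -0.77 without the 2 farthest mice. In these pairs, leaving out the 2 farthest mice left a lone mouse in a group, which adds nothing to a centred r. The r values without those mice therefore rest on few mice and cannot show what the correlations depended on. For *Atf3*, r was 0.78 to *Maff*, 0.68 to *Fosl1* (exact permutation, p = 0.0417, adjusted p = 0.0833 for each), and 0.63 to *Crem* (exact permutation, p = 0.292, adjusted p = 0.292). The 5 low mice were too few for a correlation.

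**Figure D4:**
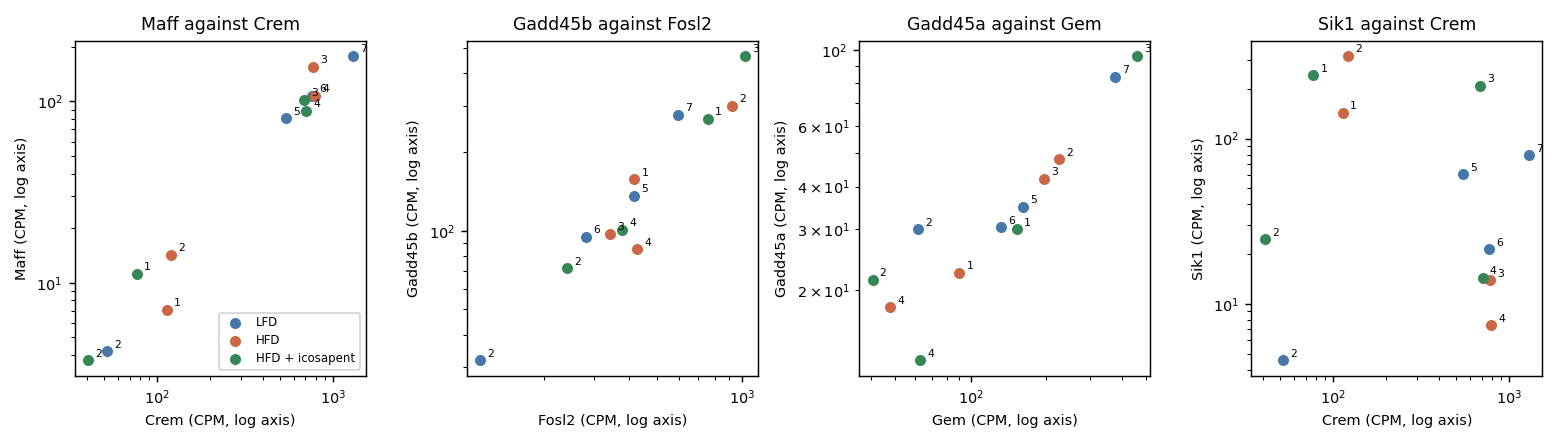
CPM of 4 pairs of genes (both axes log) in the 12 mice, coloured by group and numbered by replicate. *Maff* and *Crem* form a low cluster of 5 and a high cluster of 7 mice, *Gadd45b* follows *Fosl2* and *Gadd45a* follows *Gem* along a line, and *Sik1* shows mice that are high in it and low in *Crem*.

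Other genes with a pattern like the mean of the 10 standardized genes, over 12 mice and within groups, were *Dusp8* (r = 0.98), *Mafg* (0.98), *Rgl2* (0.97), *Per2* (0.97), *Dlgap1* (0.97), *Hbegf* (0.96), *Cep290* (0.96), and *Tnfaip6* (0.96). *Dusp8*, which encodes a MAPK phosphatase, ranged from 13.9 to 121 CPM, and the clock gene *Per2* from 17.0 to 101 CPM. *Mafg*, which encodes a small MAF factor like *Maff*, ranged from 20.0 to 61.4 CPM. Of the 10 genes, *Atf3* was closest to the mean of the other 9 (r = 0.92), and *Myc* was farthest from it (r = -0.10). The means include *Crem*, *Maff*, and *Fosl1*, so that the separate clusters of mice enter these values. They rank genes and carry no test.

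The plot of fold changes summarises 3 comparisons, and the first asked what HFD feeding changed. None of the 10 genes had an adjusted p below 0.05 in HFD versus LFD mice by the quasi-likelihood test of edgeR (Benjamini-Hochberg), while 1.45% of the 15909 genes tested did. In none of them did the groups separate, against 13.5% of all genes, and 1 of the 10, *Myc*, had an unadjusted p below 0.05, against 24.8%. *Myc* averaged 29.5 ± 8.27 CPM in the LFD group and 58.8 ± 19.6 CPM in the HFD group (mean ± SD of 4 mice). The log2 fold change was 0.99 with an SE of 0.27 and a 95% interval from 0.38 to 1.61. Its adjusted p was 0.0841 by edgeR, in which 8.77% of all genes were below 0.1, whereas the Wald test of DESeq2 gave 0.0122 and called *Myc* alone of the 10, with 12.3% of all genes called by that test.

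*Sik1* had the largest fitted difference of the 10 genes in HFD versus LFD mice, a log2 fold change of 1.54, but with an SE of 1.16 and an interval from -1.07 to 4.16 (edgeR, adjusted p = 0.439). It was 0.41 without HFD replicate 2, when *Myc* had the largest value (1.17), and between 0.41 and 2.05 over all 8 fits that left out 1 mouse. For *Crem* the log2 fold change was -0.56 (interval -2.59 to 1.47), for *Maff* -0.38 (-2.82 to 2.06), for *Atf3* -0.30 (-2.16 to 1.56), and for *Fosl1* 0.60 (-2.55 to 3.74). *Fosl2* was at 0.58 (-0.47 to 1.62), *Gadd45b* at 0.25 (-1.10 to 1.61), *Gem* at -0.38 (-1.71 to 0.95), and *Gadd45a* at -0.45 (-1.39 to 0.48). The median over the 10 genes was -0.02, and over all genes tested it was -0.01. The intervals of *Crem*, *Sik1*, *Maff*, *Atf3*, *Fosl1*, and *Gadd45b* held 2-fold differences in both directions.

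**Figure D5:**
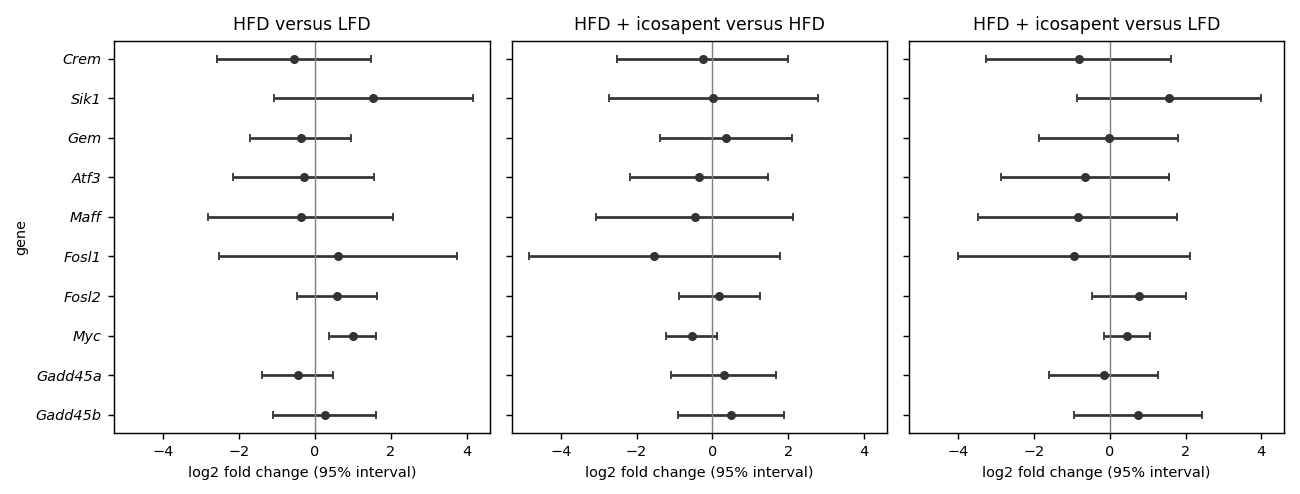
Log2 fold changes of the 10 genes from edgeR, with 95% intervals derived from its tests, in the 3 comparisons, which share mice. The interval of *Myc* in HFD versus LFD mice, 0.38 to 1.61, is the only one that leaves out 0, and that of *Fosl1* is the widest in each comparison.

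The second comparison asked what icosapent ethyl changed in HFD-fed mice. By edgeR, none of the 10 genes passed, and 0 of 15913 genes did (0%), with 221 genes at an unadjusted p below 0.05 (1.39%), none of the 10 among them, and 7 genes called by DESeq2 (0.0268%). The groups separated in none of the 10, against 1.14% of all genes. *Myc* was at 40.4 ± 12.4 CPM in icosapent ethyl–treated mice, a log2 fold change of -0.54 against the HFD mice (SE 0.29, interval -1.21 to 0.13). *Fosl1* had the largest fitted value, -1.53 (SE 1.46), which rested on HFD replicate 3: without that mouse it was 0.38. *Gadd45b* was at 0.50 (SE 0.62), *Gem* at 0.36 (SE 0.76), *Gadd45a* at 0.30 (SE 0.61), *Fosl2* at 0.19 (SE 0.47), and *Sik1* at 0.03 (SE 1.22). *Crem*, *Maff*, and *Atf3* were at -0.25, -0.46, and -0.35, with SEs of 0.99, 1.15, and 0.80.

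The third comparison set icosapent ethyl–treated against LFD mice and shares its mice with the other two. None of the 10 genes passed by edgeR, and 0 of 15935 genes did (0%), with 2225 genes at an unadjusted p below 0.05 (14%), again none of the 10 among them, and 417 called by DESeq2 (2.69%). The groups separated in none of the 10, against 7.73% of all genes. The log2 fold change was 0.46 for *Myc* (SE 0.27, edgeR adjusted p = 0.455), 1.56 for *Sik1* (SE 1.06), 0.77 for *Fosl2* (SE 0.55), and 0.75 for *Gadd45b* (SE 0.73). The other 6 genes had values from -0.95 (*Fosl1*) to -0.03 (*Gem*).

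Genes around the 10 were read from 4 lists written from general knowledge. Of 33 tested genes of cAMP and PKA signalling, down to CREB and its coactivators, 1 rose and none fell in HFD versus LFD mice. It was *Pde8b*, a cAMP phosphodiesterase of steroidogenic cells, which averaged 53.8 ± 8.37 CPM on the LFD and 85.8 ± 8.89 CPM on the HFD (SD, n = 4), with a log2 fold change of 0.67 and an SE of 0.12 (edgeR, adjusted p = 0.0418). Of all genes tested, 0.974% rose and 0.471% fell. Most fits that left out 1 mouse called no gene, so the call of *Pde8b* was lost in them. The median log2 fold change of this list was 0.05. Of the 25 early response genes none passed, 16 were higher, and the median was 0.38. *Fos* averaged 9.48 ± 2.13 CPM on the LFD and 193 ± 212 CPM on the HFD (SD, n = 4; log2 fold change 4.35 with an SE of 1.12; edgeR, adjusted p = 0.0760), with 2 HFD mice at 12.3 and 15.0 CPM. *Junb* had a log2 fold change of 3.88 (SE 1.07; edgeR, adjusted p = 0.0860). It was at 1475 and 1373 CPM in HFD replicates 1 and 2, at 69.4 and 46.5 CPM in HFD replicates 3 and 4, and at 38.3 to 67.3 CPM in the LFD mice.

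Of 34 relatives and partners of the 10 genes, none passed in HFD versus LFD mice, with a median of 0.09. *Gadd45g*, the third member of the GADD45 family, was at 5.35 ± 1.79 CPM in LFD, 11.3 ± 3.16 CPM in HFD, and 14.0 ± 2.76 CPM in icosapent ethyl–treated mice (SD, n = 4 each). Its log2 fold change was 1.08 ± 0.27 (SE; edgeR, adjusted p = 0.0736) in HFD and 1.39 ± 0.25 (SE; edgeR, adjusted p = 0.153) in icosapent ethyl–treated versus LFD mice, and in the latter the groups did not overlap. The CREB-like factor *Atf7* was at 25.96 ± 2.31 and 33.1 ± 2.22 CPM in LFD and HFD mice (log2 fold change 0.34, SE 0.10). Of the 23 targets of ATF4 and p53, none passed, 11 were higher, and the median was -0.05, with *Mdm2* at 0.45 (SE 0.17) and *Plk2* at 0.86 (SE 0.34). These 2 genes encode the ubiquitin ligase of p53 and a polo-like kinase.

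In icosapent ethyl–treated versus HFD mice none of the 33, 25, 34, and 23 genes passed. The list medians were -0.005, -0.16, 0.010, and -0.06, against 0.004 over all genes, and the genes with the lowest p in each list were *Adcy7* (-0.28) and *Atf1* (-0.23), *Arc* (-0.78) and *Egr3* (-0.82), *Rrad* (-0.41) and *Mxi1* (0.27), and *Mdm2* (-0.35) and *Ccng1* (-0.14), as log2 fold changes. In icosapent ethyl–treated versus LFD mice none passed either, with medians of 0.03, 0.26, 0.06, and -0.005. *Akap1*, a PKA anchoring protein, was at 0.36 and *Pde8b* at 0.47. *Junb* was at 3.63, *Fos* at 4.18, *Creb3* at 0.36, *Plk2* at 0.57, and *Ccng1* at -0.23. For *Junb* and *Fos*, icosapent ethyl replicate 4 lay within the range of the LFD mice, at 44.0 and 10.1 CPM. The other icosapent ethyl–treated mice lay above that range.

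Cell type markers moved with the groups as follows. In HFD versus LFD mice, 4 of 9 macrophage markers fell, and no other marker passed in any of the 3 comparisons. Of all genes tested in HFD versus LFD mice, 0.471% fell, and most fits that left out 1 mouse called no gene. The 12 chromaffin markers were lower in HFD mice without passing (median log2 fold change -1.24), with summed levels of 6278 to 22130 CPM in LFD, 3034 to 9814 CPM in HFD, and 5423 to 10716 CPM in icosapent ethyl–treated mice. The 11 adrenocortical markers were all higher in HFD than in LFD mice without passing (median 0.49), with sums of 49990 to 80074, 62636 to 111694, and 65969 to 103485 CPM. The macrophage markers had a median of -0.63 and sums of 723 to 1085, 506 to 612, and 555 to 697 CPM. The medians of the Schwann cell (-1.37), erythroid (-0.59), fibroblast and capsule (-0.44), and endothelial (-0.01) markers were negative, and those of the neutrophil (0.45), adipocyte (0.43), and lymphocyte (0.19) markers positive. Lymphocyte markers summed to no more than 7.30 CPM in any mouse. The part of cell composition in the values of the 10 genes was not tested.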

How the data were processed

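The authors made strand-specific libraries from adrenal cortex RNA, trimmed adaptors with cutadapt, aligned reads to GRCm38 with STAR, and counted them on GENCODE M12 genes with HTSeq 0.6.1p1. They deposited raw read counts per gene and mouse. Opposite-strand genes overlap *Crem*, *Fosl1*, *Atf3*, and *Gadd45a*. Symbols and coordinates came from GENCODE M21 (49326 of 49585 genes). Each comparison was fitted to the counts of its own 8 mice with the robust quasi-likelihood method of edgeR 4.0.16 (R 4.3.3), after TMM scaling (factors 0.883 to 1.14) and filterByExpr (at least 10 counts). P-values were adjusted over all genes (Benjamini-Hochberg) and called below 0.05. The edgeR test gives no SE, so each SE was derived from the log2 fold change and the F statistic of its test. The 95% intervals used this SE and a t quantile. Log2 CPM used a prior count of 2. Alternatives were DESeq2 1.42.0, other scalings, filters, fits, and thresholds, and leaving out each mouse. Genes were named as all 10 members, list genes past the threshold or else the 2 with the lowest p, and the 8 genes most like the members' mean. The 10 genes, lists, and tests were chosen with earlier results of these data known. Separate clusters were taken where neighbouring mice differed by more than 2 in log2 CPM, a limit chosen after the data were seen. The gap of *Fosl1* was 25.5% of its range, against 43.5% for *Crem* and 44.9% for *Maff*. Those of *Fosl2* and *Gadd45b*, which fell short of the limit, were 32.9% and 30.3%. HFD and icosapent ethyl–treated mice share the numbers 1 to 4 in the labels. Deviations of same-numbered mice correlated at 0.240, 0.116, 0.340, and 0.632. The numbers were taken as pairs for the alternative with a replicate block. However, HFD replicates 1, 2, and 3 each correlated more with another number. The values were 0.598 with icosapent ethyl replicate 2, 0.443 with replicate 1, and 0.368 with replicate 4, so that the pairing is an assumption.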

Additional observations from a re-analysis of the deposited data

Results flagged for a closer look

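Both results below concern 1 mouse that stood apart from the other 3 of its group by Dixon's criterion (the gap to the nearest mouse divided by the range of the group, at the 95% critical value for 4 mice). Of the 30 combinations of gene and group examined, chance would give about 1.5 such results, and 2 were found.

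*Fosl2* was at 917 CPM in HFD replicate 2, and the nearest HFD mouse was at 427 CPM, so that the gap was 0.851 of the range. *Gadd45a* was at 83.5 CPM in LFD replicate 7, and the nearest LFD mouse was at 34.9 CPM, a gap of 0.908 of the range.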

How the results depend on the processing

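No alternative called any of the 10 genes in any comparison, except that *Myc* in HFD versus LFD mice passed with DESeq2 and at an adjusted p below 0.1 by edgeR, so that the count was then 1. Leaving out 1 mouse at a time gave 0 of the 10 in each comparison, and the adjusted p of *Myc* was then between 0.0828 and 0.184. The count over all genes in HFD versus LFD mice was 230, 1965 with DESeq2, 84 without TMM scaling, 556 with all 12 mice in 1 fit, and 1396 at an adjusted p below 0.1. Without 1 mouse it was between 0 and 918 (918 when HFD replicate 1 was left out, 78 for LFD replicate 2, and 0 for each of the 6 remaining mice). In icosapent ethyl–treated versus HFD mice it was 7 with DESeq2, and in icosapent ethyl–treated versus LFD mice 417 with DESeq2, 2 with all 12 mice in 1 fit, and 0 to 1 without 1 mouse. Fewer mice enter a fit that leaves 1 out, and otherwise the cause was not tested.

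Leaving out 1 mouse turned the sign of a log2 fold change in 8 of 80 cases in HFD versus LFD mice, in 15 of 80 in icosapent ethyl–treated versus HFD mice, and in 8 of 80 in icosapent ethyl–treated versus LFD mice, and none of these values was called. The values in HFD versus LFD mice then ran from -0.76 to 0.61 for *Atf3*, from -0.25 to 0.86 for *Gadd45b*, from -1.31 to 1.48 for *Fosl1*, from -1.09 to 0.14 for *Maff*, from -0.71 to 0.23 for *Gem*, and from -0.70 to 0.020 for *Gadd45a*. In icosapent ethyl–treated versus HFD mice they ran from -0.75 to 0.17 for *Crem*, from -2.23 to 0.38 for *Fosl1*, from -1.44 to 0.13 for *Atf3*, from -1.03 to 0.26 for *Maff*, from -0.54 to 1.16 for *Sik1*, from -0.19 to 0.60 for *Fosl2*, from -0.70 to 0.69 for *Gem*, from -0.61 to 0.60 for *Gadd45a*, and from -0.12 to 1.003 for *Gadd45b*. In icosapent ethyl–treated versus LFD mice they ran from -1.75 to 0.28 for *Atf3*, from -1.10 to 0.60 for *Gem*, and from -1.07 to 0.33 for *Gadd45a*. The replicate block for icosapent ethyl–treated versus HFD mice changed no call, and the adjusted p of each of the 10 genes was 0.889 or higher by edgeR, although *Crem* had an unadjusted p below 0.05. With this assumed pairing the log2 fold change was -0.011 for *Gadd45a* in place of 0.30, 0.69 for *Sik1* in place of 0.03, and -0.61 for *Crem* in place of -0.25. It was -0.60 for *Atf3* in place of -0.35, 0.092 for *Gem* in place of 0.36, and 0.12 for *Fosl2* in place of 0.19. No paired analysis was possible for the other comparisons because their groups share only the number 2. With the 2 farthest mice left out, 2 of the 21 correlations passed in place of 7. Within the 7 high mice, 1 of 6 pairs (*Crem* and *Maff*) passed in place of 0 when values were not centred and were permuted over all 7 mice, an alternative chosen after seeing the data.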

Other observations

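Genes with a pattern like that of *Sik1* or *Myc* alone were looked up after the data were seen. Over 12 mice and within groups, *Agbl5* (r = 0.98), *Csrnp1* (0.97), *Irs2* (0.97), *Rgs2* (0.96), and *Nrros* (0.96) were closest to *Sik1*. *Rgs2*, which encodes a regulator of G protein signalling, ranged from 162 to 1293 CPM, *Irs2*, an insulin receptor substrate, from 15.0 to 125 CPM, and *Csrnp1* from 10.6 to 141 CPM. *Agbl5* ranged only from 6.96 to 12.3 CPM. For *Myc* the closest genes were *Wls* (0.86) and *Exosc5* (0.85). Of 16252 other genes, 279 had r above 0.9 to *Atf3*, 65 to *Sik1*, 48 to *Fosl2*, 45 to *Gadd45b*, 34 to *Gem*, 4 to *Gadd45a*, and 0 to *Myc*. Below -0.9 there were 297 for *Atf3*, 42 for *Sik1*, 41 for *Fosl2*, 58 for *Gadd45b*, 105 for *Gem*, 27 for *Gadd45a*, and 0 for *Myc*. The counts were largest for *Crem*, *Maff*, and *Fosl1*, with 715, 719, and 653 genes above 0.9 and 495, 544, and 542 below -0.9. The separate clusters of mice enter these counts, and the pattern was thus not particular to *Crem*, *Maff*, and *Fosl1*. These values are descriptions without a test.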
